A study of Mus musculus with 18 samples.

Results

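The genes described here are 10 E3 ubiquitin ligases of striated muscle that are linked to atrophy, chosen by name from the gene table. They are the 3 muscle RING-finger (MuRF) ligases Trim63 (MuRF1), Trim54 (MuRF3) and Trim55 (MuRF2), the 5 F-box proteins Fbxo32 (atrogin-1), Fbxo30 (MUSA1), Fbxo31, Fbxo21 (SMART) and Fbxo40, and the 2 further RING ligases Mul1 and Rnf115. All 10 were found among the 46983 genes of the table, and all 10 passed the filter on low values that left 12111 genes for testing. RNA-seq libraries came from skeletal muscle of 5 fasted MKO, 4 fasted WT, 5 fed MKO and 4 fed WT mice, 1 mouse a library, 18 in all. Fasting lasted 24 h and the animals were adult males of strain C57Bl6/J. Every mouse carried floxed alleles of PGC-1β (Ppargc1b, a transcriptional coactivator of mitochondrial genes). MKO mice also carried Cre under the human skeletal actin promoter, which removes exons 4 to 6 in muscle fibres, and WT mice had no Cre, so the Cre transgene itself is present only in the MKO groups. Quadriceps is the muscle in the sample labels, whereas the methods of the study speak of Gastrocnemius.

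An E3 ligase brings a ubiquitin-loaded conjugating enzyme to its substrate, and chains of ubiquitin mark the substrate for the proteasome. RING ligases such as the MuRF proteins do this directly, whereas an F-box protein is the exchangeable substrate receptor of a cullin complex with Skp1 and Cul1. Trim63 and Fbxo32 are the classic atrophy genes of muscle, induced by fasting, denervation and glucocorticoids, and FoxO transcription factors are their best known activators.

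Values are transcripts per 1000000 (TPM), which correct for transcript length and are shares of a library, so that levels can be compared between genes but the read depth behind a value is unknown and no counting error can be given. Changes are log2 differences of TPM + 0.1 between group means, fitted with limma over all 12111 genes. A change was called where its p, adjusted over those genes by Benjamini-Hochberg, was under 0.05, and because of the added 0.1 they slightly understate the change of genes at low TPM. In bulk tissue, fewer cells of a type and less RNA per cell cannot be told apart.

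One library stood apart. Transcripts of the mitochondrial genome took 81.3% of the TPM in fasted WT replicate 4 and between 61.5% and 75.0% in the other 17 libraries, and the median gene of that library differed by -0.49 from the mean of all libraries on the log2 scale. Its slow-fibre transcripts made up 2.94% of the summed slow and fast fibre TPM, against 0.169 to 0.731% in the other 3 fasted WT libraries. The mitochondrial share also moved with the genotype. It averaged 65.8% ± 2.64 in fasted MKO, 74.7% ± 4.55 in fasted WT, 68.6% ± 1.11 in fed MKO and 74.5% ± 0.322 in fed WT muscle (SD, n = 5, 4, 5 and 4). The median log2 level of the genes tested averaged 2.18 in fasted MKO and 1.86 in fasted WT, and 2.13 in fed MKO and 1.86 in fed WT libraries, and the median of the log2 differences of all genes, MKO against WT, was 0.31 in fasted and 0.25 in fed muscle. Values of the 10 ligases are therefore given as deposited and again relative to the median gene of each library, and with and without fasted WT replicate 4. Fast-fibre genes of skeletal muscle were high in every library (Myh4 between 2156 and 9873 TPM) and the heart genes Myh6 and Nppa stayed under 0.5 TPM, as is usual for skeletal muscle. Ppargc1b itself cannot check the genotype here, since gene-level TPM also count exons outside the deleted ones. It averaged 2.13 TPM in fed MKO and 1.71 TPM in fed WT, and 0.843 TPM in fasted MKO and 1.12 TPM in fasted WT muscle. Neither genotype difference passed as deposited (limma adjusted p = 0.273 in fed and 0.1475 in fasted muscle), and single exons were not examined.

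Promoter sequences are shown for 4 of the ligases because they differ in the response described below. Trim63 had the steepest fasting response, Trim54 is a MuRF gene with a weaker one, Fbxo31 had the steepest response among the genes with none of the motifs searched, and Rnf115 had the largest difference between genotypes in fasted muscle relative to the median gene. The windows run from 250 bases before to 50 after the start of the gene in RefSeq (GRCm38.p6), 5′ to 3′ on the strand of the gene. An entry was found for 8 of the 10 genes, with 9 windows because Fbxo40 has 2 starts. Fbxo32 and Trim55 had no entry, so their promoters were not searched. Capitals mark matches on either strand to the FoxO core GTAAACA (reverse complement TGTTTAC), the E-box CAGCTG (its own reverse complement) and the glucocorticoid receptor half-site AGAACA (reverse complement TGTTCT).
Trim63, chr4:134314870-134315169, plus strand: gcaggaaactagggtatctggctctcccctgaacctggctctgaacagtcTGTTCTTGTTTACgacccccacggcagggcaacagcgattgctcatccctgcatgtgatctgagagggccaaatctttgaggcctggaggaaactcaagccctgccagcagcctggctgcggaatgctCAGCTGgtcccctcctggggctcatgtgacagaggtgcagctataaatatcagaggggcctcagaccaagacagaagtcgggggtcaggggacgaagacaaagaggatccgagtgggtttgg
Trim54, chr5:31116362-31116661, plus strand: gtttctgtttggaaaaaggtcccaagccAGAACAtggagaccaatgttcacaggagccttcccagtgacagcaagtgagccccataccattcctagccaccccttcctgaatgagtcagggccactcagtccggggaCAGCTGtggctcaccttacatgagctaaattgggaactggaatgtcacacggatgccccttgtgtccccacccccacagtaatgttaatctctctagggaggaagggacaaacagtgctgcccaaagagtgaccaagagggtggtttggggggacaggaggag
Fbxo31, chr8:121578757-121579056, minus strand: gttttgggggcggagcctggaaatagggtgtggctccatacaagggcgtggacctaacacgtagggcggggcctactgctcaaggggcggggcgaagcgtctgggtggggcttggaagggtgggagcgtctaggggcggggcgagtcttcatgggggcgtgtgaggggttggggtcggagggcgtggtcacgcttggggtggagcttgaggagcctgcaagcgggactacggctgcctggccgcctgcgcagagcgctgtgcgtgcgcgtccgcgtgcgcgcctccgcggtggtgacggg
Rnf115, chr3:96727361-96727660, plus strand: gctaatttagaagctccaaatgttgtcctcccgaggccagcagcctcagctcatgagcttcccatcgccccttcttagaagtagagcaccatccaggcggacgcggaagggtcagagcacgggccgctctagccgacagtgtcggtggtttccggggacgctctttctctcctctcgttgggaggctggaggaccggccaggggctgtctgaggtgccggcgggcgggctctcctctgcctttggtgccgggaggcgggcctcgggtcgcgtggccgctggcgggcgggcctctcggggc
Among the 9 windows, which include none of Fbxo32 or Trim55, only that of Trim63 held the FoxO core. It lay 194 bases before the start and directly after a half-site at 200 bases, without overlap, so that the pair reads as 1 run of capitals. An E-box lay 72 bases before the Trim63 start. The Trim54 window held an E-box at 113 bases and a half-site at 222 bases before the start. Both Fbxo40 windows held the E-box and one of them the half-site, and those of Fbxo30, Fbxo31, Fbxo21, Mul1 and Rnf115 held none of the 3 motifs. Of all 32851 promoter windows of the same length, 3.65% held the FoxO core, 16.3% the E-box and 19.0% the half-site. A match describes letters only, and no occupancy was measured.

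Trim63 and Fbxo32 were the most abundant of the 10 ligases, with means over the 18 libraries of 526 and 279 TPM, which placed them 64th and 107th among the genes tested. Trim54 (131 TPM) and Fbxo40 (91.8 TPM) followed, then Rnf115 (39.6 TPM) and Trim55 (25.4 TPM). Fbxo31 (8.13 TPM), Fbxo30 (7.90 TPM), Mul1 (7.64 TPM) and Fbxo21 (3.63 TPM) were low, and the ranges of Fbxo31, Fbxo30 and Mul1 over the libraries overlapped. The 10 transcripts together took 0.41 to 0.70% of the TPM outside the mitochondrial genome in fasted MKO, 0.42 to 0.91% in fasted WT, 0.12 to 0.15% in fed MKO and 0.13 to 0.16% in fed WT libraries.

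Trim63, whose product ubiquitinates thick-filament proteins of the sarcomere, had 1008, 1587, 598, 735 and 768 TPM in fasted MKO muscle and 58.3, 62.3, 57.7, 70.6 and 66.6 TPM in fed MKO muscle. In WT mice it had 1239, 1177, 1420 and 343 TPM in fasted and 54.0, 87.2, 68.9 and 59.9 TPM in fed muscle. Every fasted library lay far above every fed library of its genotype, while the fasted libraries of the 2 genotypes overlapped and the lowest of all fasted values was that of WT replicate 4. Fasting raised Trim63 14.03-fold in MKO muscle (log2 change 3.81 ± 0.30, SE, limma adjusted p = 1.82e-08) and 13.8-fold in WT muscle (3.79 ± 0.34, limma adjusted p = 9.54e-08). Without WT replicate 4 the WT change was 19.2-fold (4.26 ± 0.23). The fed groups were tight in MKO (CV 8.70%) and wider in WT (CV 21.5%), and the fasted groups were wide in both (CV 41.7% in MKO and 45.8% in WT, or 9.86% in WT without replicate 4).

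Fbxo32, the receptor of an F-box ligase reported to degrade MyoD and eIF3f, had 499, 699, 378, 506 and 519 TPM in fasted MKO and 60.8, 54.2, 80.1, 78.2 and 62.9 TPM in fed MKO muscle. WT mice had 494, 520, 619 and 205 TPM when fasted and 50.8, 74.9, 61.3 and 55.8 TPM when fed. Again no fasted library overlapped a fed one, and the fasted genotypes overlapped. Fbxo32 rose 7.66-fold with fasting in MKO (log2 change 2.94 ± 0.23, limma adjusted p = 1.29e-08) and 7.07-fold in WT muscle (2.82 ± 0.25, limma adjusted p = 1.08e-07), or 9.003-fold in WT without replicate 4 (3.17 ± 0.18). Fbxo32 lies at chr15:58175879-58214932 on the minus strand (GRCm38, GENCODE M21), and an antisense gene model, Gm15943, overlaps its exons by 186 bases and averaged 22.0 TPM. Whether the counting used strand is not given in the sources used here, so reads of the shared bases may belong to either gene.

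**Figure D1:**
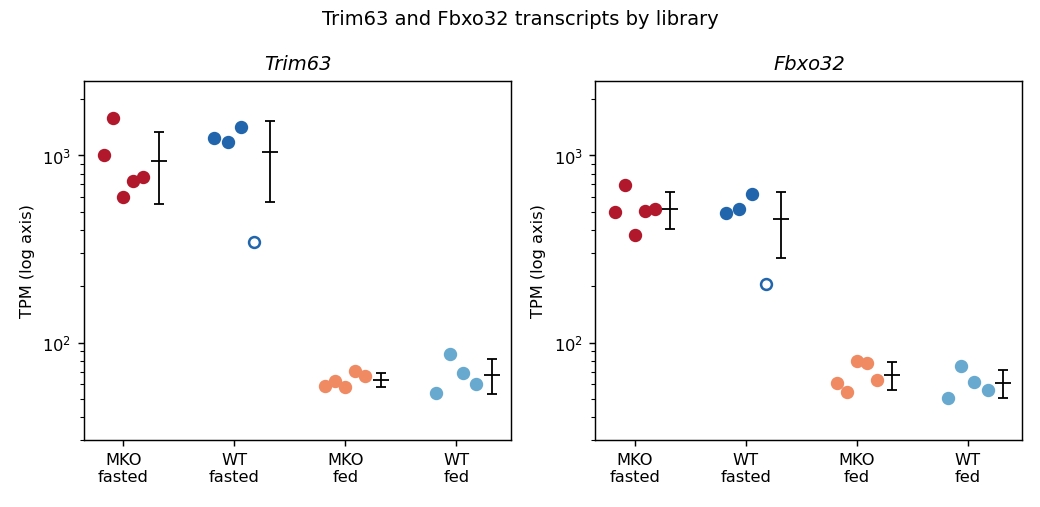
TPM of Trim63 (left) and Fbxo32 (right) in each library on a log axis, by group, with the mean and SD beside the points. The open circle is fasted WT replicate 4. All fasted libraries, 343 to 1587 TPM for Trim63 and 205 to 699 TPM for Fbxo32, lie above all fed libraries, and the genotypes overlap in the fasted state.

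Trim63 outran Fbxo32 in both genotypes. The log2 ratio of Trim63 to Fbxo32 averaged 0.79 ± 0.29 in fasted MKO and -0.08 ± 0.26 in fed MKO muscle (SD, n = 5 each), a difference of 0.87. In WT muscle it averaged 1.11 ± 0.26 when fasted and 0.14 ± 0.06 when fed (SD, n = 4 each), a difference of 0.97. Both differences passed a two-sided exact permutation test over the libraries, adjusted over the 8 tests of this ratio and of the MuRF share below (p = 0.00794 and adjusted p = 0.0212 in MKO, p = 0.0286 and adjusted p = 0.0457 in WT, the smallest p these group sizes allow). The WT call was lost without fed WT replicate 2 (exact permutation, adjusted p = 0.0571), although the difference was no smaller (0.99). That adjusted p depends on all 8 tests, and the MuRF share between fed genotypes no longer passed without this library. With fasted WT replicate 4 left out instead, 3 against 4 libraries, the WT difference still passed (1.09, exact permutation, p = 0.0286, adjusted p = 0.0457). Between genotypes the ratio differed by -0.32 in fasted and -0.22 in fed muscle, MKO minus WT, and neither difference passed (exact permutation, adjusted p = 0.154 for both).

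Trim54, which like the other MuRF proteins binds sarcomere and microtubules, had 182, 203, 154, 143 and 156 TPM in fasted MKO and 108, 94.6, 136, 109 and 116 TPM in fed MKO libraries, which did not overlap. It had 200, 179, 161 and 73.2 TPM in fasted WT and 75.2, 90.9, 91.0 and 79.8 TPM in fed WT libraries, which overlapped through replicate 4 alone. Trim54 rose 1.49-fold in MKO (log2 change 0.57 ± 0.19, limma adjusted p = 0.0283) and 1.71-fold in WT muscle (0.77 ± 0.22, limma adjusted p = 0.00895), or 2.14-fold in WT without replicate 4 (limma adjusted p = 2.30e-06). The MKO call was narrow, and it was lost without fasted MKO replicate 1 or 2 or fed MKO replicate 1, 2 or 4 and with no filter on low values (limma adjusted p between 0.0508 and 0.0757), but relative to the median gene it was clearer (0.52 ± 0.14, limma adjusted p = 0.00769). The antisense model Gm15469 overlaps exons of Trim54 by 382 bases and was near 0 (mean 0.0270 TPM).

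Trim55, the MuRF member that also takes part in signalling from titin at the M-band, went the other way. It had 20.3, 24.5, 22.3, 24.2 and 21.6 TPM in fasted MKO muscle, against 33.0, 34.9, 31.9, 34.0 and 37.2 TPM in fed MKO muscle. Fasted WT libraries had 15.2, 16.5, 17.1 and 11.05 TPM, against 27.7, 29.6, 27.3 and 29.6 TPM in fed WT libraries. As deposited, the 4 groups did not overlap at all, and their order was fasted WT, fasted MKO, fed WT and fed MKO from low to high. Relative to the median gene the genotypes overlapped. Log2 values were 2.91 to 3.03 in fed MKO and 2.89 to 3.08 in fed WT, and 2.12 to 2.52 in fasted MKO and 1.90 to 2.17 in fasted WT libraries. Trim55 fell by 0.60 ± 0.10 on the log2 scale with fasting in MKO (limma adjusted p = 0.000191) and by 0.94 ± 0.11 in WT muscle (limma adjusted p = 4.20e-06). It was the only one of the 10 that fell with fasting in either genotype.

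The make-up of the MuRF transcripts differed with feeding. Trim63 made up 82.1% ± 3.73 of the summed MuRF TPM in fasted MKO and 30.1% ± 2.94 in fed MKO libraries (SD, n = 5 each), with no overlap. In WT mice it made up 85.02% ± 3.54 in fasted and 37.2% ± 3.37 in fed libraries (SD, n = 4 each). These differences of 52.0 and 47.9 percentage points passed the two-sided exact permutation test (adjusted p = 0.0212 and 0.0457). The WT call was lost without fed WT replicate 2 (49.5 points, exact permutation, adjusted p = 0.0571) and held without fasted WT replicate 4 (49.4 points, exact permutation, adjusted p = 0.0457). Trim54 was the main MuRF transcript in fed muscle, with 53.5% ± 4.14 in MKO and 46.9% ± 2.15 in WT, and Trim55 held 16.4% ± 1.47 and 16.0% ± 1.83 there, against 2.17% ± 0.65 in fasted MKO and 1.48% ± 0.74 in fasted WT. The summed MuRF level was 775 to 1814 TPM in fasted MKO, 428 to 1598 TPM in fasted WT, 192 to 225 TPM in fed MKO and 157 to 208 TPM in fed WT libraries. In fed muscle the Trim63 share was lower in MKO than in WT, with a difference of -7.02 percentage points and no overlap (exact permutation, p = 0.00794, adjusted p = 0.0212), and in fasted muscle it differed by -2.90 points, MKO minus WT, which did not pass (p = 0.262 and adjusted p = 0.262). A share does not depend on how a library is scaled. The fed difference rests partly on fed WT replicate 2, which had the highest share (42.0%), and without it the difference was -5.41 points and did not pass.

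**Figure D2:**
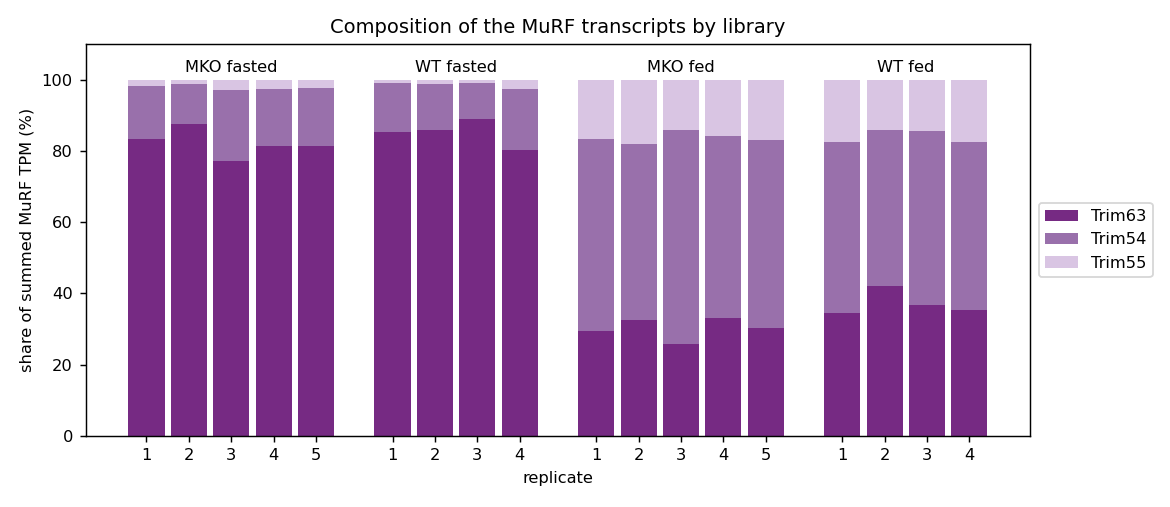
Share of Trim63, Trim54 and Trim55 in the summed MuRF TPM (%) in each of the 18 libraries, by group and replicate. Trim63 holds 77.2 to 88.8% in fasted libraries and 25.6 to 42.0% in fed libraries.

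Fbxo31, Fbxo21 and Fbxo30 rose with fasting from low levels. Fbxo31, an F-box protein known in cell-cycle control for degrading cyclin D1, had 11.1 to 15.8 TPM in fasted MKO against 3.78 to 4.38 TPM in fed MKO libraries, and 8.55 to 14.5 TPM in fasted WT against 2.88 to 4.27 TPM in fed WT libraries. It rose 3.04-fold in MKO (log2 change 1.603 ± 0.14, limma adjusted p = 4.84e-08) and 3.13-fold in WT muscle (1.65 ± 0.15, limma adjusted p = 1.75e-07). Fbxo21, known in mouse muscle as SMART, a ligase needed for denervation atrophy, had 5.03 to 6.82 TPM in fasted MKO against 1.91 to 2.69 TPM in fed MKO libraries, and 3.63 to 5.00 TPM in fasted WT against 1.63 to 2.06 TPM in fed WT libraries. Its change was 2.36-fold in MKO (1.24 ± 0.11) and 2.33-fold in WT (1.22 ± 0.13), with limma adjusted p = 1.39e-07 and 8.38e-07. Fbxo30, the MUSA1 ligase that BMP signalling holds down in mouse muscle, had 9.09 to 15.8 TPM in fasted MKO against 4.42 to 6.06 TPM in fed MKO libraries, and 7.06 to 12.3 TPM in fasted WT against 3.66 to 4.597 TPM in fed WT libraries. It rose 2.16-fold in MKO (1.11 ± 0.16) and 2.51-fold in WT muscle (1.33 ± 0.18), with limma adjusted p = 4.25e-05 and 1.94e-05. For all 3 genes fasted and fed libraries did not overlap in either genotype, including WT replicate 4. Of all genes tested, 29.95% did not overlap between fasted and fed libraries in MKO and 26.03% in WT, as deposited.

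Fbxo40, a muscle F-box protein reported to degrade Irs1 after insulin signalling, moved little. It had 110, 113, 95.6, 94.2 and 95.4 TPM in fasted MKO and 85.8, 83.2, 84.5, 91.9 and 88.0 TPM in fed MKO libraries. WT mice had 118, 106, 109 and 72.2 TPM when fasted and 73.3, 80.05, 76.1 and 76.6 TPM when fed. Fasted and fed MKO libraries did not overlap, and in WT only replicate 4 did not lie above the fed values. Fbxo40 rose 1.30-fold in WT muscle (log2 change 0.38 ± 0.12, limma adjusted p = 0.0164), or 1.45-fold without replicate 4 (0.54 ± 0.07, limma adjusted p = 1.73e-05). This WT call was lost without fasted WT replicate 1 or 3 (limma adjusted p = 0.0578 and 0.0502) and when only the WT groups were fitted (limma adjusted p = 0.0936). In MKO muscle the change of 0.23 ± 0.11 did not pass as deposited (limma adjusted p = 0.107), and it passed relative to the median gene (0.17 ± 0.06, limma adjusted p = 0.0282, lost on leaving out any of 4 of the 17 libraries other than fasted WT replicate 4) and without WT replicate 4, whose omission leaves the change and narrows its SE to 0.06 (limma adjusted p = 0.00672).

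Rnf115, a RING ligase also called BCA2 that is described in human cells as a partner of Rab7 in membrane traffic, had 54.1, 56.4, 60.9 and 50.3 TPM in fasted WT muscle, against 32.6, 35.3, 33.8 and 36.8 TPM in fed WT muscle. In MKO mice it had 37.7, 35.6, 35.6, 36.0 and 41.8 TPM when fasted and 31.3, 31.8, 38.3, 33.1 and 31.6 TPM when fed. The fasted WT libraries stood above all 14 others, replicate 4 included, and the other 3 groups overlapped. Rnf115 rose 1.597-fold with fasting in WT muscle (log2 change 0.68 ± 0.09, limma adjusted p = 1.37e-05), and in MKO muscle its change was 0.17 ± 0.08, which did not pass (limma adjusted p = 0.114) unless fed MKO replicate 3 was left out (0.22, limma adjusted p = 0.0447). Mul1, a ligase of the outer mitochondrial membrane that acts on mitofusin, had 6.88 to 9.30 TPM in fasted MKO, 6.01 to 8.05 TPM in fasted WT, 6.97 to 8.42 TPM in fed MKO and 7.53 to 8.63 TPM in fed WT libraries. These ranges overlapped, and its fasting changes of 0.05 (95% interval -0.18 to 0.28) in MKO and -0.15 (-0.40 to 0.11) in WT did not pass (limma adjusted p = 0.769 and 0.371).

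**Figure D3:**
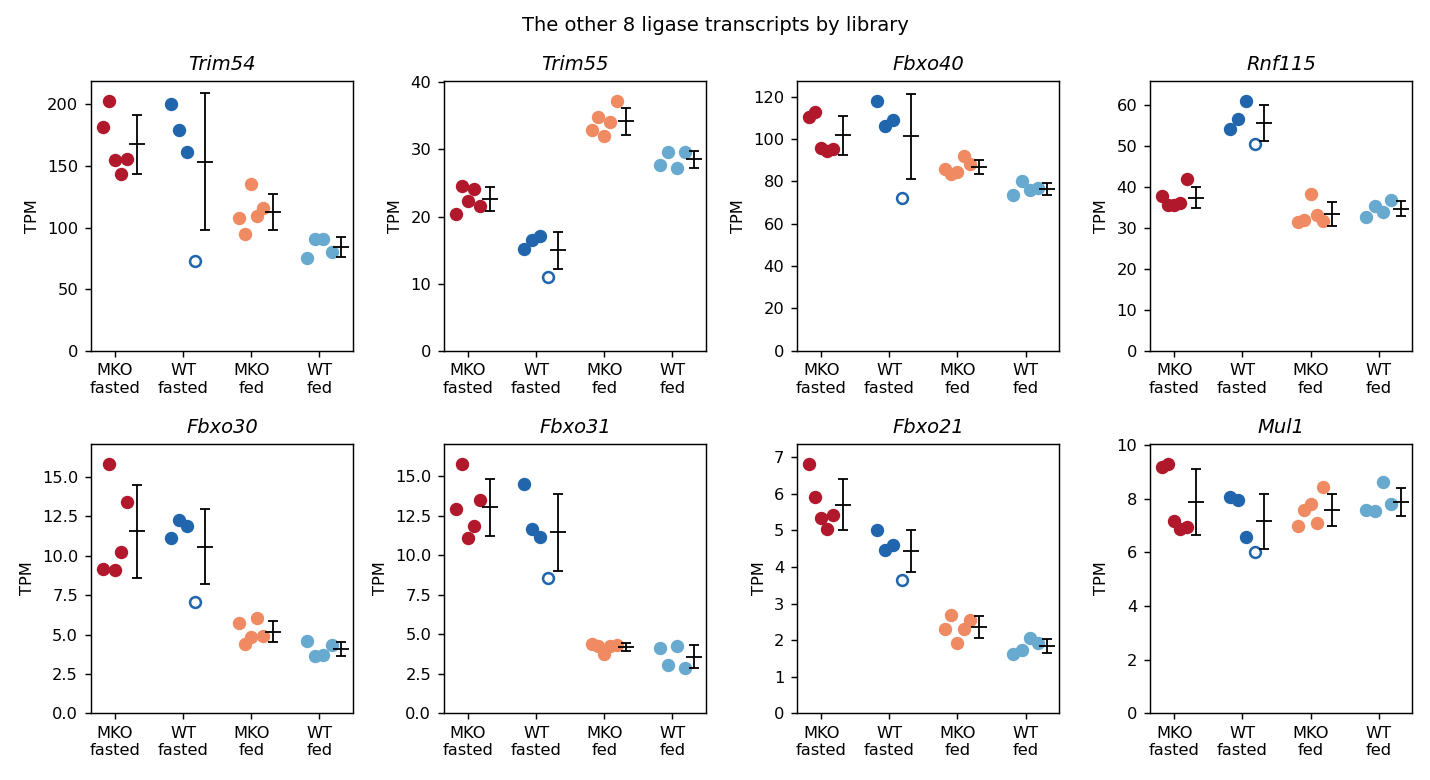
TPM of the other 8 ligases in each library, by group, with the mean and SD beside the points and axes from 0. The open circle is fasted WT replicate 4. Trim55 falls with fasting in both genotypes, Fbxo30, Fbxo31 and Fbxo21 rise in both, and Rnf115 is highest in the 4 fasted WT libraries, 50.3 to 60.9 TPM.

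Counted together, 6 of the 10 ligases rose and 1 fell with fasting in MKO muscle (33.8% of all genes tested were called, 18.1% higher and 15.8% lower), and 8 rose and 1 fell in WT muscle (35.9% called, 15.3% higher and 20.7% lower). The median log2 change of the 10 was 0.84 in MKO and 0.996 in WT, beside 0.01 and -0.06 over all genes tested. Relative to the median gene of each library the counts were 7 higher and 1 lower in MKO (42.9% of all genes called, 20.2% higher and 22.7% lower) and 8 higher and 1 lower in WT (44.5% called, 19.9% higher and 24.6% lower), and no called fasting change of the 10 turned direction. Leaving out WT replicate 4 moved the deposited WT changes of all 10 upward, most for Trim63, Fbxo32 and Trim54. None of the 9 WT calls was lost by that step (43.6% of all genes called).

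The comparison of genotypes asks whether loss of PGC-1β in fibres changed the ligases within each feeding state. In fasted muscle 3 of the 10 passed as deposited, Trim55 and Fbxo21 higher and Rnf115 lower in MKO (39.4% of all genes tested were called, 38.9% higher and 0.528% lower). Relative to the median gene 3 passed as well, but they were Trim55 higher and Rnf115 and Fbxo40 lower in MKO (5.19% of all genes called, 2.64% higher and 2.54% lower). The median log2 difference of the 10, MKO against WT, was 0.17 beside 0.31 over all genes as deposited, and -0.15 beside -0.01 after scaling. Libraries of 3 of the 10 did not overlap between the fasted genotypes as deposited (22.9% of all genes tested did not). After scaling, those of 2 of the 10 did not overlap (7.52% of all genes).

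Rnf115 was the only one of the 10 whose call in fasted muscle held on both scales and with every library left out. Its values of 35.6 to 41.8 TPM in fasted MKO lay below the 50.3 to 60.9 TPM of fasted WT without overlap. The difference was -0.57 ± 0.09 as deposited (limma adjusted p = 0.00029) and -0.89 ± 0.09 relative to the median gene (limma adjusted p = 1.89e-05), or -0.61 and -0.82 without WT replicate 4. In fed muscle it was -0.06 ± 0.09 (limma adjusted p = 0.577) and, relative to the median gene, -0.33 ± 0.09 (limma adjusted p = 0.09999, or 0.0359 without fed MKO replicate 3). Whether the fasting response of Rnf115 differed between genotypes was tested as the interaction, which was -0.51 ± 0.12 and did not pass (limma adjusted p = 0.189), nor after scaling (-0.56, limma adjusted p = 0.112). It passed without WT replicate 4 on the deposited scale (-0.55, limma adjusted p = 0.0409, with 0.215% of all genes called) and not when both changes were made (-0.49, limma adjusted p = 0.0959).

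Trim55 was higher in fasted MKO than in fasted WT muscle by 0.61 ± 0.11 as deposited (limma adjusted p = 0.000885), with no overlap of the libraries on that scale. This exceeded the shift of the median gene, and 0.29 ± 0.08 remained after scaling (limma adjusted p = 0.0423), a call that was lost without WT replicate 4 (0.26, limma adjusted p = 0.0804) and on leaving out any of 12 of the other 17 libraries (highest limma adjusted p = 0.102), and with the replicate block. On TPM recomputed without mitochondrial genes the Trim55 difference was 0.16 and did not pass (limma adjusted p = 0.235). Fbxo21 was higher by 0.36 ± 0.12 as deposited (limma adjusted p = 0.0266), without overlap, but differed by 0.04 ± 0.10 relative to the median gene (95% interval -0.16 to 0.24, limma adjusted p = 0.864), so that its call did not go beyond the shift of the whole library, and it was also lost without WT replicate 4, without MKO replicate 1 or 2, with the replicate block and when only the fasted groups were fitted (limma adjusted p between 0.0502 and 0.0986). Fbxo40 did not pass as deposited (0.02 ± 0.11, limma adjusted p = 0.871), and was lower in fasted MKO relative to the median gene, by -0.30 ± 0.06 (limma adjusted p = 0.0125), with log2 values of 4.37 to 4.56 in MKO and 4.64 to 4.85 in WT that did not overlap. The Fbxo40 difference was -0.34 without WT replicate 4 (limma adjusted p = 0.00368), and the scaled call held with each of the other 17 libraries left out. As deposited, the difference lay between -0.13 and 0.11 with single libraries left out, and its sign turned without WT replicate 4 or MKO replicate 1 or 2.

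Trim63 and Fbxo32 did not pass between fasted MKO and fasted WT muscle as deposited, with changes of -0.05 (95% interval -0.72 to 0.61, limma adjusted p = 0.899) and 0.26 (-0.24 to 0.76, limma adjusted p = 0.377). WT replicate 4 weighed heavily here. Its TPM were 26.9% of the average over replicates 1 to 3 for Trim63 and 37.8% for Fbxo32, beside 40.7% for Trim54 and 88.1% for Rnf115, and after scaling by the median gene Trim63 still differed from them by -1.46 on the log2 scale and Fbxo32 by -0.96. Relative to the median gene, log2 values of Trim63 were 7.75, 8.35, 7.11, 7.44 and 7.38 in fasted MKO, against 8.24, 8.26, 8.54 and 6.89 in fasted WT. All but 1 of the 5 MKO libraries lay below the 3 other WT libraries and MKO replicate 2 lay among them, and that library had the lowest mitochondrial share of all (61.5%). The Trim63 difference was -0.38 ± 0.27 after scaling (limma adjusted p = 0.467), -0.53 ± 0.22 without WT replicate 4 (limma adjusted p = 0.0886), and -0.74 ± 0.21 with both (95% interval -1.18 to -0.30, limma adjusted p = 0.0446), the 1 of 46 settings in which it passed (5.71% of all genes called, and the groups overlapped). Fbxo32 was -0.30 with both (-0.65 to 0.06, limma adjusted p = 0.329). Most of the 46 settings kept WT replicate 4. In the settings without it, Trim63 had an unadjusted limma p under 0.05 both as deposited and after scaling. The part that the mixture of fibres or the mitochondrial share in WT replicate 4 has in these values was not tested.

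**Figure D4:**
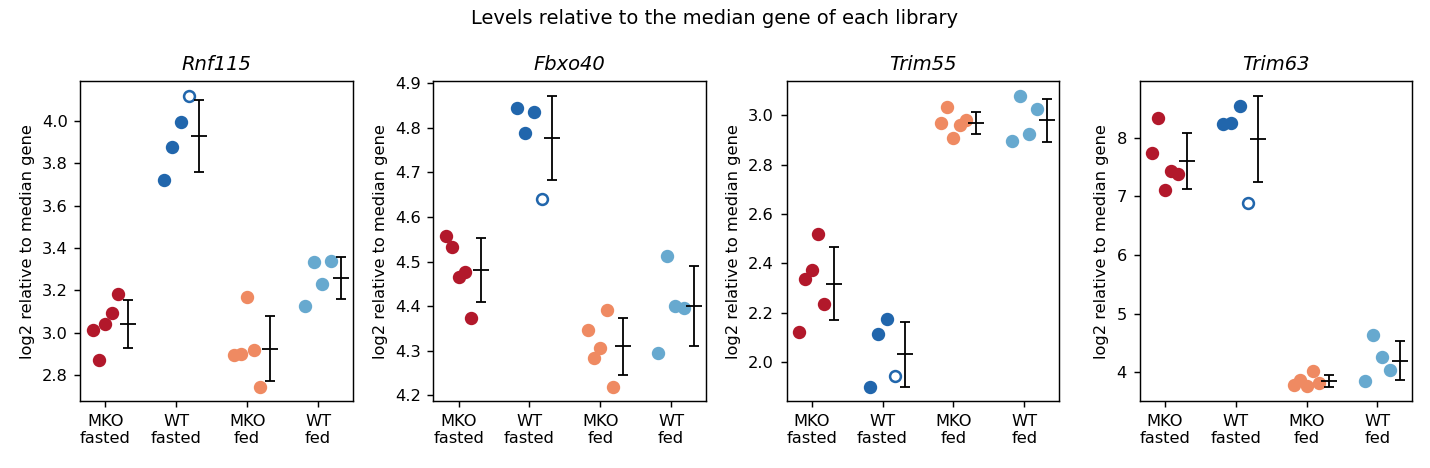
Log2 level of Rnf115, Fbxo40, Trim55 and Trim63 relative to the median gene of each library, by group, with mean and SD beside the points. The open circle is fasted WT replicate 4, and the axes do not start at 0. Rnf115 and Fbxo40 are lower in fasted MKO than in fasted WT libraries without overlap (7.52% of all genes tested did not overlap). Trim63 of fasted WT replicate 4 lies at 6.89, below all other fasted libraries.

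In fed muscle none of the 10 ligases passed between MKO and WT with limma, as deposited (5.05% of all genes tested were called, and 2 of the 10 had an unadjusted p under 0.05, Trim55 and Fbxo21) or relative to the median gene (1.1% called, with Mul1 and Rnf115 at an unadjusted p under 0.05). Libraries of Trim54 (94.6 to 136 TPM in MKO and 75.2 to 91.0 TPM in WT), Trim55 (31.9 to 37.2 and 27.3 to 29.6 TPM) and Fbxo40 (83.2 to 91.9 and 73.3 to 80.05 TPM) did not overlap between fed MKO and fed WT muscle (27.3% of all genes did not), at changes of 0.41, 0.26 and 0.18 beside a median difference of 0.25 over all genes. Mul1 was lower in fed MKO without overlap only after scaling (-0.33 ± 0.08, limma adjusted p = 0.0755), where 6.18% of all genes did not overlap. Leaving out fasted WT replicate 4, which is in neither fed group, narrowed the shared estimate of spread, and 4 of the 10 then passed as higher in MKO, Trim54, Trim55, Fbxo40 and Fbxo21 (33.4% of all genes called). After scaling none of these 4 passed and Mul1 and Rnf115 were called lower in MKO (2.19% of all genes called, limma adjusted p = 0.0491 for both).

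**Figure D5:**
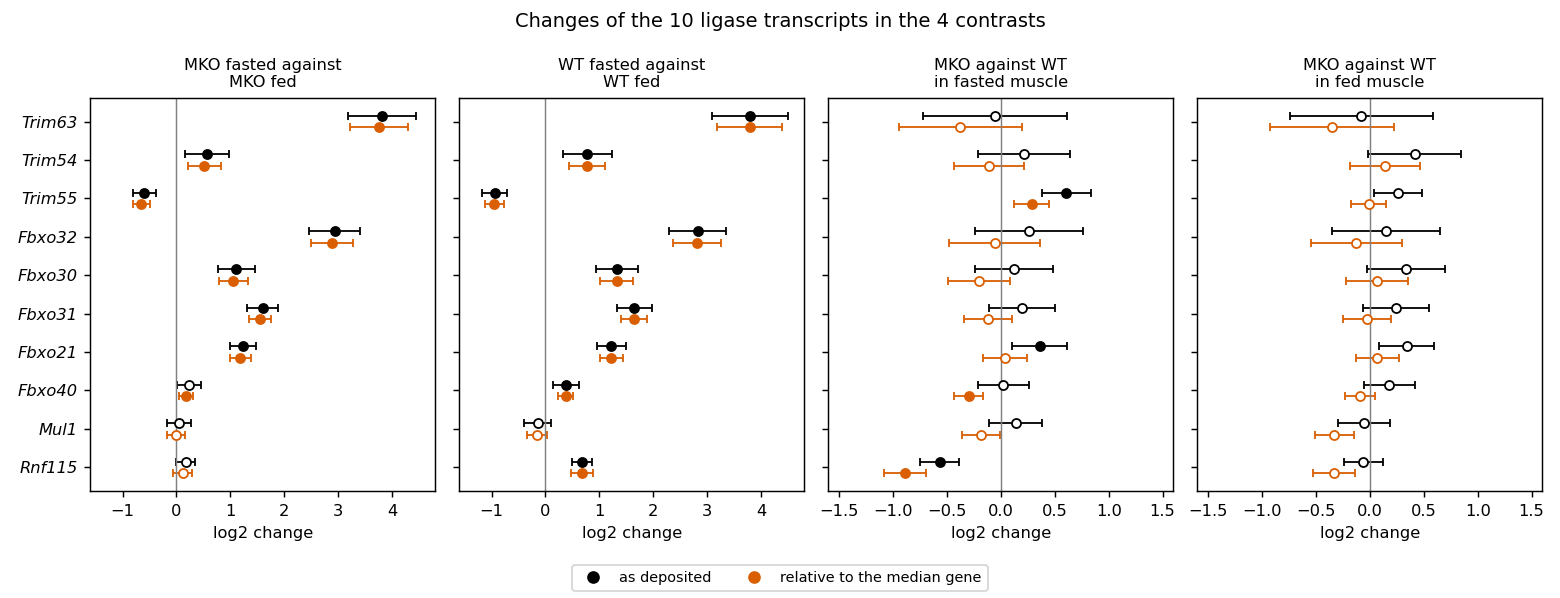
Log2 change of each of the 10 ligases in the 4 comparisons, as deposited (black) and relative to the median gene (orange). Bars are 95% intervals from limma, and filled circles passed an adjusted p under 0.05. Called fasting changes have the same direction on both scales, the fasting change of Rnf115 passes in WT only, and the genotype differences lie further to the left after scaling.

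None of the 10 ligases passed the interaction of genotype and fasting with limma, as deposited (0.033% of all genes called, with Rnf115 and Trim55 at an unadjusted p under 0.05) or relative to the median gene (0.116% called, with Rnf115, Trim55 and Fbxo40 at an unadjusted p under 0.05). The unadjusted 95% interval of the interaction was -0.92 to 0.97 for Trim63 and -0.59 to 0.83 for Fbxo32, on the log2 scale as deposited. Differences of the fasting response between genotypes within these bounds are thus not excluded by these data. It was narrower for Fbxo31 (-0.47 to 0.38) and Fbxo21 (-0.34 to 0.38).

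Genes around the ligases in the pathway were taken from lists by role. Of 20 transcriptional regulators of the atrophy program, 9 rose and 2 fell with fasting in MKO and 7 rose and 2 fell in WT muscle (median log2 change 0.31 and 0.20, beside 0.01 and -0.06 over all genes). Over all genes tested, 18.1% rose and 15.8% fell in MKO and 15.3% rose and 20.7% fell in WT muscle, and the counts of this and the next lists stand beside those shares without a test. Foxo3 averaged 16.6 TPM in fasted and 5.28 TPM in fed MKO muscle, and 13.8 TPM in fasted and 4.03 TPM in fed WT muscle (limma adjusted p = 8.21e-07 and 2.38e-06). Cebpd, a glucocorticoid-responsive factor, averaged 128 ± 31.97 TPM in fasted and 5.09 ± 1.28 TPM in fed MKO muscle (SD, n = 5 each, log2 change 4.63, limma adjusted p = 2.77e-09), and 72.4 ± 34.05 TPM in fasted and 6.25 ± 1.34 TPM in fed WT muscle (SD, n = 4 each, 3.33, limma adjusted p = 8.49e-07). Its interaction did not pass (1.30, limma adjusted p = 0.41). Smad3, which carries myostatin signals, averaged 12.6 TPM in fasted MKO and 6.77 TPM in fasted WT muscle and was higher in MKO on both scales (0.89, limma adjusted p = 0.000138, and 0.57 after scaling, limma adjusted p = 0.0036).

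Of 15 genes for ubiquitin, its activating enzyme and conjugating enzymes, 6 rose and 3 fell with fasting in MKO and 4 rose and 4 fell in WT muscle, and the conjugating enzyme Ube2n fell by 0.70 in MKO and by 0.997 in WT. Of 9 genes of the F-box complex core, 1 rose in MKO, and 1 rose and 2 fell in WT muscle. The gene that rose in both was the scaffold Cul1 (0.43, limma adjusted p = 0.0104, and 0.38, limma adjusted p = 0.0359).

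Of 26 other muscle ligases tested, 4 rose and 4 fell in MKO, and 4 rose and 5 fell in WT muscle, near the shares of all genes called (33.8% in MKO and 35.9% in WT). Cblb, which targets Irs1 in unloading, rose by 1.48 and 1.59 on the log2 scale, MKO and WT, and Ubr4, an N-recognin, by 1.03 and 1.16, whereas Kbtbd13, a cullin adaptor of the thin filament, fell by 1.68 in MKO and by 1.6 in WT. Of 11 reported substrates of the ligases, 1 rose and 1 fell in MKO, and 0 rose and 2 fell in WT muscle, so that most were not called. Myod1, a substrate that fell, averaged 2.50 ± 0.91 TPM in fasted and 18.8 ± 4.00 TPM in fed MKO muscle. It averaged 3.22 ± 0.44 TPM in fasted and 16.0 ± 3.81 TPM in fed WT muscle, and the changes were -2.92 and -2.25 (limma adjusted p = 9.44e-09 and 1.19e-06). These are transcripts, and no protein level was measured here. Between genotypes in fasted muscle, 12 of the 26 other ligases, 10 of the 15 ubiquitin genes, 5 of the 9 core genes and 7 of the 20 regulators were called as deposited, each higher in MKO, beside 38.9% of all genes called higher. After scaling 1 of the 26 (Peli1, lower in MKO), 1 of the 15 (Ube2e1, higher), none of the 9 and 1 of the 20 (Smad3, higher) were called, beside 5.19% of all genes.

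The genes whose pattern over the 18 libraries was most like that of a ligase were taken by the smallest root mean square difference of log2 levels, scaled to the median gene and centred, among 5198 genes of at least 5 TPM, with the 10 ligases, mitochondrial genes and gene models without a name left out. For Trim63 these were Tacc2 (0.33), Cebpd (0.50), Slc43a1 (0.59) and Fam134b (0.60), and Trim63 differed from Fbxo32 by 0.52. For Fbxo32 they were Fam134b (0.24), Tmem140 (0.25), Klhl38 (0.30) and Sesn1 (0.32). Tacc2, a centrosome and microtubule protein, had group means 13.2 times higher in fasted than in fed MKO and 16.3 times higher in fasted than in fed WT muscle. These differences are descriptions without a test, since the libraries share the fasting contrast.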

How the data were processed

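RNA-seq of muscle from 18 mice was read from 1 table of 46983 genes, with 1 column of TPM per library. The deposited TPM values came from the CLC Genomics Workbench, in which the authors mapped reads to the mouse genome (mm10 and GRCm38 in the submitters' processing notes), with version and settings not given in the sources used here, and each column summed to 1000000. The labels name poly-A RNA and a SMARTER kit, whereas the methods describe ligated adapters. Columns with the authors' own fold changes and p-values were not used, and 0 per-sample columns were left unmapped. Of the identifiers, 46488 (98.95%) were in GENCODE M21.

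The filter kept genes that reached 0.5 TPM in 4 or more libraries, and log2(TPM + 0.1) was fitted with limma 3.58.1 (R 4.3.3, empirical Bayes with trend, 1 fit of 4 group means, two-sided, Benjamini-Hochberg over 12111 genes). Scaling to the median gene subtracted the median log2 value of each library. Shares and ratios were compared by exact permutation tests (Python 3.11.15, scipy 1.17.1). The fit was tested on simulated data. Labels call the libraries biological replicates. Depth is unknown from TPM.

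Genes named are the 10 ligases, up to 4 genes a list by smallest adjusted p in the comparison discussed, the 4 nearest patterns of Trim63 and Fbxo32, and checks of the libraries. A listed gene that this rule would name is not reported here by name. The members and lists were chosen with earlier results of these data known. Alternatives were other scalings (median, quantile, TPM without mitochondrial genes), filters (none, 2 TPM), pseudocounts (0.01, 1), a block for replicate number, separate fits of each pair of groups, and leaving out each library. Scaling together with the block, and scaling together with leaving out each library other than fasted WT replicate 4, were added after seeing the data.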

Additional observations from a re-analysis of the deposited data

Results flagged for a closer look

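In 3 of 80 groups of values (10 ligases, 4 groups, TPM and log2 level relative to the median gene, 40 groups a scale) a single library lay far from the rest by Dixon's ratio of the gap to the range, where chance flags about 1 in 20 groups. Fbxo31 had 3.78 TPM in fed MKO replicate 3, below the other fed MKO libraries, with a gap of 0.754 of the range. Rnf115 had 38.3 TPM in the same library, above the other fed MKO libraries, with a gap of 0.749 of the range. Fbxo21 stood at 0.56 on the log2 scale relative to the median gene in fasted MKO replicate 1, above the other fasted MKO libraries, with a gap of 0.790 of the range.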

How the results depend on the processing

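The fasting calls of Trim63, Fbxo32, Trim55, Fbxo30, Fbxo31 and Fbxo21 kept their direction and their call in both genotypes under every alternative run. TPM give no depth, so low values carry an unknown counting error. The cause of the shifts below was not tested, beyond the shift of the median gene that scaling removes by construction.

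Between fed MKO and fed WT muscle the number of ligases called was 0, but 2 when scaled and without fasted WT replicate 4, and 5 when only the compared groups were fitted, and leaving out single libraries gave 0 to 4. The interaction gave 0 to 1 with single libraries left out.

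Values are given next in the order scaled to the median gene, quantile normalization, TPM without mitochondrial genes, and scaled without fasted WT replicate 4. The fasting change of Mul1 in MKO (0.05 as deposited) was -0.0054, -0.042, -0.074 and -0.0051. For MKO against WT in fasted muscle, Trim54 (0.21) was -0.11, -0.082, -0.24 and -0.32. Fbxo32 (0.26) was -0.057, -0.17, -0.19 and -0.30. Fbxo30 (0.12) was -0.20, -0.20, -0.33 and -0.27. Fbxo31 (0.20) was -0.12, -0.12, -0.25 and -0.15. Fbxo40 (0.02) was -0.30, -0.26, -0.43 and -0.34, and passed in all 4. Mul1 (0.14) was -0.18, -0.19, -0.31 and -0.15, and passed only without mitochondrial genes. Fbxo21 (0.36) was -0.086 without mitochondrial genes. In fed muscle, Fbxo32 (0.15) was -0.12, -0.024, -0.15 and -0.12, and Fbxo31 (0.24) was -0.029, -0.021, -0.048 and -0.029. Without the quantile value, Trim55 (0.26) was -0.011, -0.036 and -0.011, and Fbxo40 (0.18) was -0.091, -0.12 and -0.091. The interaction of Trim63 (0.02) was -0.026, -0.21, -0.13 and -0.39, and that of Fbxo32 (0.12) was -0.15, -0.039 and -0.17 in the last 3.

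Leaving out single libraries moved the Mul1 fasting change in MKO between -0.014 and 0.093. In fasted muscle it moved the genotype difference of Trim63 between -0.53 and 0.15, Trim54 between -0.11 and 0.37, Fbxo32 between -0.086 and 0.44, Fbxo30 between -0.062 and 0.20 and Fbxo40 between -0.13 and 0.11. In fed muscle Trim63 moved between -0.18 and 0.053. The interaction moved between -0.45 and 0.23 for Trim63 and between -0.23 and 0.30 for Fbxo32. The Trim63 share of MuRF TPM differed by 46.6 to 49.5 points with fasting in WT and by -7.93 to -5.41 points between fed genotypes. Both calls were lost without fed WT replicate 2, that of fasting in the adjustment alone, with no smaller difference. The log2 ratio of Trim63 to Fbxo32 differed by 0.89 to 1.09 with fasting in WT, a call lost without the same library in the adjustment alone. Between fed genotypes the ratio differed by -0.29 to -0.13, which passed without fed MKO replicate 2.

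No common pairing by replicate number was seen. The 25 pairs of libraries with the same number had correlations of deviations between -0.199 and 0.152 (median -0.00258), and 4 were above 0.1. Such correlations cannot show whether samples of the same number were handled together. With the replicate block 2 ligases were called between MKO and WT in fasted muscle instead of 3, and the counts of the other comparisons were 7, 9, 0 and 0, as without it.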
